A study of Mus musculus with 8 samples.

Results

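The 33 genes described here are the parts of the hypoxia-inducible factor (HIF) oxygen-sensing system and HIF target genes that lie outside glycolysis, picked by name, by a rule that uses no measured value, although with earlier results of these data known. They comprised 9 genes of HIF subunits and oxygen sensors and 24 target genes. All 33 were measured, out of 18193 genes named on the arrays, and each gene was read from its brightest probe set. Expression came from secondary neurospheres, free-floating clusters of neural stem and progenitor cells regrown from a dissociated first round of spheres. The cells came from the forebrains of FoxO3-/- (FoxO3 null) and FoxO3+/+ (wild type) mice of the FVB/N strain, and all spheres grew for 6 days in the growth factors bFGF and EGF, each at 20 ng/ml. There were 4 arrays of each genotype, in 2 sets that each held 2 arrays per genotype. The labels give no age of the mice, no deleted part of Foxo3 and no meaning of a set. They also do not say whether arrays of 1 set and genotype were separate cultures, so the p-values measure only the spread between arrays, which may be technical.

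In cells with enough oxygen, prolyl hydroxylases of the Egln family mark the HIF alpha subunits, and the Vhl ubiquitin ligase then sends them to the proteasome. When oxygen falls, alpha subunits build up, pair with Arnt and switch on genes whose regulatory DNA carries the hypoxia response element. Control is thus exerted mainly on the HIF alpha proteins, which arrays do not measure, while the messenger RNA of target genes is the usual transcript readout. In neural stem cells low oxygen and HIF-1alpha are known to favour upkeep of the undifferentiated state.

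Values are log2 expression after RMA, an array normalization that gives the arrays a common distribution, so every difference is relative to the other genes. Array medians lay between 6.27 and 6.31. Foxo3, the mutated gene, read 10.24, 10.26, 10.32 and 10.00 in the wild type arrays and 8.86, 9.08, 9.05 and 9.14 in the FoxO3 null arrays in its brightest probe set, with no overlap. The sets differed strongly, with 43.8% of all genes passing the set test, so set was a term in the comparison of genotypes (limma across all genes, Benjamini-Hochberg adjustment, called at an adjusted p under 0.05). Of 7 measured markers of neural stem and progenitor cells 1, Msi1, lay just below the median gene and the other 6 above it, from Pax6, brighter than 61.0% of genes, to Fabp7 at the top of the range. All 7 endothelial, all 7 microglial and all 3 measured erythroid markers lay below the median gene. The summed endothelial level was between 8.85 and 9.04 in wild type and between 8.88 and 8.98 in the FoxO3 null arrays, the microglial one between 8.21 and 8.41 against 8.14 to 8.48, and the erythroid one between 7.67 and 7.74 against 7.63 to 7.89. The other marker lists are given with the results.

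Part of the HIF target genes fell in the FoxO3 null spheres. Among the 24 targets 8 were called lower and 0 higher, that is 33.3% lower against a background of 1.17% of all genes called lower and 0.429% called higher (limma; 18 lower and 0 higher at an unadjusted p under 0.05, where 1307 of all genes were lower and 1514 higher). The 8 were Vegfa, Adm, Car12, P4ha1, Plod2, Ero1l (now Ero1a), Mxi1 and Bhlhe40, and the other 16 were not called. The median log2 difference over the targets was -0.38, a level 1.30-fold higher in wild type, beside 0.01 over all genes. Of the 9 subunits and sensors only Epas1 was called lower and 0 were called higher (3 lower and 0 higher at an unadjusted p under 0.05), and their median was -0.11. Whether targets differed from subunits and sensors was not tested.

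**Figure D1:**
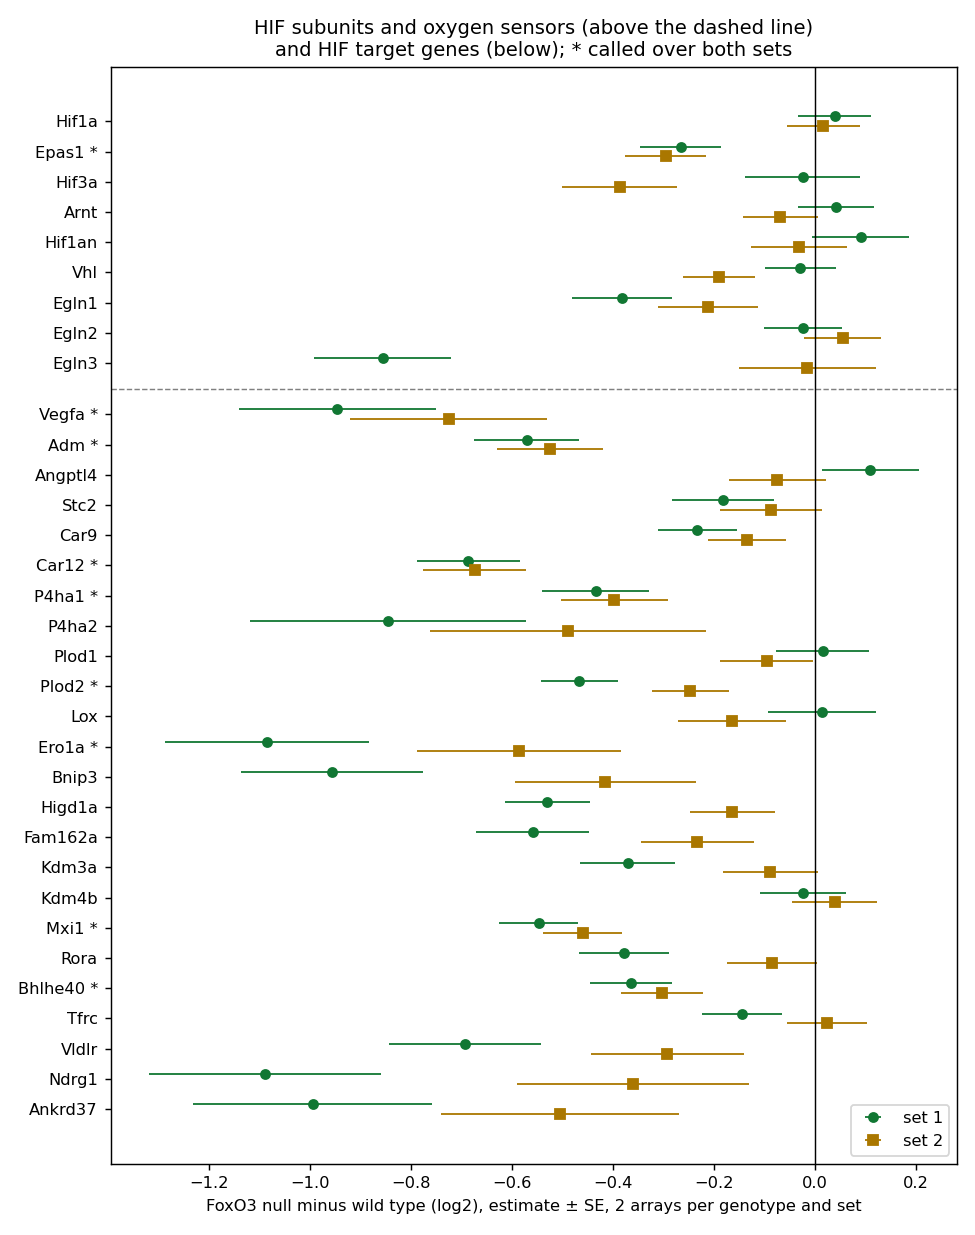
FoxO3 null minus wild type difference (log2, x axis) of each of the 33 genes in set 1 (circles) and set 2 (squares), each point an estimate with its SE from 2 arrays per genotype. Subunits and sensors lie above the dashed line and targets below it. Asterisks mark the 9 genes called over both sets, and 21 of the 24 targets have their set 1 point to the left of their set 2 point.

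The alpha subunits differed among themselves. Hif1a, which encodes the widely expressed oxygen-regulated subunit HIF-1alpha, read 12.30, 12.22, 12.03 and 12.02 in wild type arrays 1_1, 1_2, 2_1 and 2_2 (set and array number) and 12.28, 12.32, 12.00 and 12.08 in the FoxO3 null arrays of the same numbers. The genotypes overlapped in each set, with a log2 difference of 0.03 ± 0.05 (SE; limma adjusted p = 0.849) and a 95% confidence interval from -0.08 to 0.14. Epas1, which encodes HIF-2alpha, a subunit prominent in vessels and glia, read 11.09, 10.99, 10.65 and 10.51 in the wild type arrays and 10.77, 10.78, 10.23 and 10.33 in the FoxO3 null arrays, in the same order. Within each set both FoxO3 null arrays lay below both wild type arrays, although the sets themselves overlapped. Epas1 fell by 0.28 ± 0.06, to 82.3% of the wild type signal (limma adjusted p = 0.0335), by 0.27 in set 1 and 0.30 in set 2. That call was lost in 7 of the 8 fits that left out 1 array and held only without wild type array 2_2. The log2 difference in these fits ran from -0.31 to -0.25. A dimmer Epas1 probe set gave -0.18, with -0.08 in set 1 and -0.28 in set 2. When all probe sets were tested neither passed (limma adjusted p = 0.0573 for the brightest and 0.334 for the dimmer). Hif3a, whose protein can act as a dominant negative HIF form, read 8.11, 8.15, 8.46 and 8.44 in the wild type arrays and 8.27, 7.94, 7.94 and 8.19 in the FoxO3 null arrays. Its genotypes overlapped in set 1 and were apart in set 2, and it was not called (-0.21 ± 0.10, limma adjusted p = 0.344, and -0.12 without FoxO3 null array 2_1). These values are from the brightest of its 6 probe sets, and the dimmer ones gave differences between -0.06 and 0.05.

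Arnt, the constant partner of the alpha subunits, read 8.42, 8.29, 8.72 and 8.71 in the wild type arrays and 8.44, 8.36, 8.64 and 8.65 in the FoxO3 null arrays. The log2 difference was -0.01 ± 0.05 (SE), with a 95% interval from -0.13 to 0.10. Hif1an, the asparagine hydroxylase that keeps HIF from its coactivators, read 7.90, 8.01, 7.94 and 8.07 in the wild type arrays and 7.93, 8.16, 7.91 and 8.04 in the FoxO3 null arrays, a difference of 0.03 with an interval from -0.12 to 0.18. Neither gene was called, and both had differences of opposite sign in the 2 sets. Vhl, the substrate-binding part of the ubiquitin ligase, read 9.39, 9.35, 9.70 and 9.67 in the wild type arrays and 9.37, 9.32, 9.45 and 9.54 in the FoxO3 null arrays. The Vhl genotypes overlapped in set 1 and were apart in set 2 (-0.11 ± 0.05 over both, limma adjusted p = 0.374).

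The 3 prolyl hydroxylases gave 3 different patterns. Egln2 read 10.00, 10.01, 10.01 and 9.98 in the wild type arrays and 9.92, 10.04, 10.11 and 9.98 in the FoxO3 null arrays, with a difference of 0.02 and a 95% interval from -0.10 to 0.13. Egln1, the main oxygen sensor of most cells and itself a HIF target, read 11.29, 11.13, 11.46 and 11.61 in the wild type arrays and 10.94, 10.70, 11.35 and 11.29 in the FoxO3 null arrays. Egln1 was lower in the FoxO3 null arrays of each set but missed the threshold (-0.30 ± 0.07 (SE), limma adjusted p = 0.0837). Egln3, which is strongly induced by low oxygen, read 10.44, 10.40, 9.92 and 9.93 in the wild type arrays and 9.81, 9.31, 10.00 and 9.83 in the FoxO3 null arrays. In set 1 Egln3 fell by 0.86 ± 0.14 (limma adjusted p = 0.0215), and in set 2 the genotypes overlapped with a difference of -0.01. The test of that contrast between sets did not pass (interaction adjusted p = 0.17, unadjusted p = 0.00136), nor did the genotype test over both sets (-0.43 ± 0.16, adjusted p = 0.228; -0.25 without FoxO3 null array 1_2). A dimmer Egln3 probe set gave -0.72 in set 1 and -0.33 in set 2 and passed when all probe sets were tested (limma adjusted p = 0.0442).

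**Figure D2:**
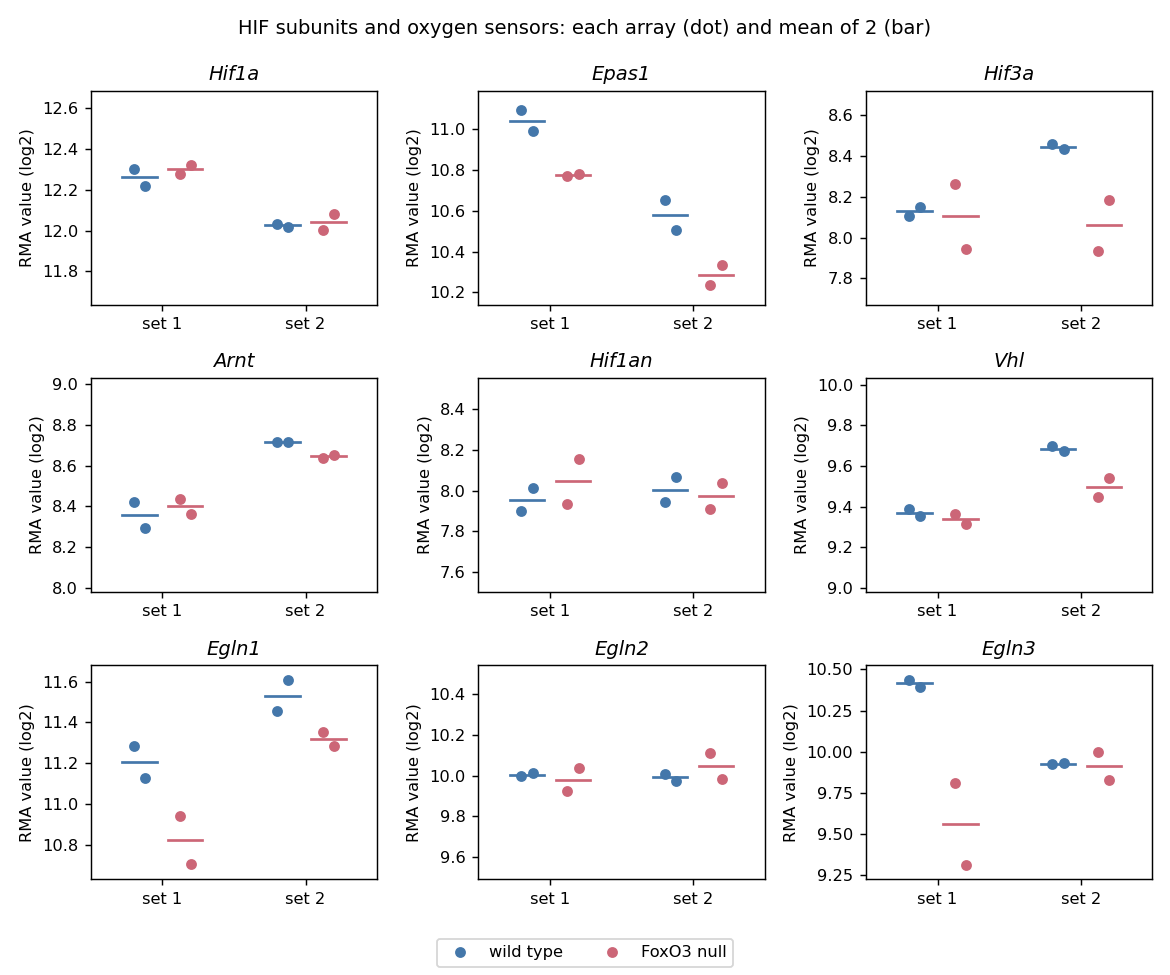
RMA value (log2, y axis) of the 9 subunit and sensor genes in each array (dots; blue wild type, red FoxO3 null) with the mean of the 2 arrays (bars), by set. Hif1a, Hif1an and Egln2 overlap between genotypes in both sets, Epas1 and Egln1 are lower in the FoxO3 null arrays of both sets, and Egln3 is lower in set 1 only, a contrast whose interaction test did not pass.

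HIF binds the core letters ACGTG or GCGTG of the hypoxia response element, so the promoters of targets that fell together were searched for them. Promoter windows from RefSeq (GRCm38.p6, 250 bases before to 50 after the gene start) were matched by symbol for 26 of the 33 genes, 18 targets and 8 subunits and sensors. A core on either strand was in a window of 16 of the 18 targets (88.9%) and of 6 of the 8 subunits and sensors (75%), beside 46.7% of all 27025 genes in the table; CACGTG holds a core on each strand and counts as 2. The share was 5 of 6 among called targets and 11 of 12 among targets not called. The core contains a CG pair, and the windows of these genes were richer in G and C (64.1% against 53.8% over all windows). The FoxO binding motif GTAAACA was in a window of 1 of the 26 genes, Mxi1, beside 4.05% of all genes. The called targets with the most cores were P4ha1 and Ero1l with 3 and Adm and Vegfa with 2. The Vegfa cores were in the window of an alternative start inside the gene and the window of its outer start held 0. The 250 bases before the start of the other three are shown on the gene's strand, 5′ to 3′, with the cores in capitals (CACGT and CACGC are the cores read on the other strand). They lie at chr10:59323046-59323295 (plus strand, P4ha1), chr14:45318573-45318822 (minus strand, Ero1l) and chr7:110627407-110627656 (plus strand, Adm).
P4ha1: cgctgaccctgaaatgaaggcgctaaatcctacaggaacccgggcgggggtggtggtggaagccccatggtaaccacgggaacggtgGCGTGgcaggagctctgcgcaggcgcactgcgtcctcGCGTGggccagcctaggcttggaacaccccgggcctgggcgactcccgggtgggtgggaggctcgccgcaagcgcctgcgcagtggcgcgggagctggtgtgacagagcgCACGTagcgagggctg
Ero1l: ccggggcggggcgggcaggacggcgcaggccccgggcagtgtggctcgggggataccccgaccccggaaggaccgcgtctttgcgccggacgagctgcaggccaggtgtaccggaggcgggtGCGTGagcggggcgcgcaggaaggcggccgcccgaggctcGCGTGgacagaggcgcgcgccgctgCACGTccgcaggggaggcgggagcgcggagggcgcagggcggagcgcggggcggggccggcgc
Adm: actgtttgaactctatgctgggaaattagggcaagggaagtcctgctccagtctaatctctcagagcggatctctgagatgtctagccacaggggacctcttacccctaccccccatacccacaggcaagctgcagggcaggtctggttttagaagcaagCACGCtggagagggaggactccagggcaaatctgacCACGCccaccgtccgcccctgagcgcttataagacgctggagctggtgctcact

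Of the secreted factors, Vegfa and Adm fell and Stc2 and Angptl4 were not called. Vegfa, the chief growth factor of blood vessels, read 11.92, 11.54, 12.15 and 11.96 in the wild type arrays and 11.14, 10.44, 11.35 and 11.31 in the FoxO3 null arrays. Every FoxO3 null array lay below every wild type array, and the level was 56.1% of wild type (log2 difference -0.84 ± 0.14 (SE), limma adjusted p = 0.017). Its other probe set, also called when all probe sets were tested, gave -0.74. Adm, which encodes the vasodilator peptide adrenomedullin, read 11.89, 11.65, 11.32 and 11.40 in the wild type arrays and 11.33, 11.07, 10.81 and 10.87 in the FoxO3 null arrays. Adm was apart within both sets and was called in each of them, with falls of 0.57 in set 1 and 0.52 in set 2 (limma adjusted p = 0.0418 and 0.0367). Stc2, a secreted glycoprotein, had a difference of -0.13 ± 0.07, and Angptl4, a lipase inhibitor, one of 0.02 ± 0.07; Angptl4 was dim, brighter than 36.8% of genes.

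Car12 had the smallest p-value among the targets. This membrane carbonic anhydrase, which helps cells keep their pH, read 7.27, 7.06, 7.96 and 7.99 in the wild type arrays and 6.61, 6.35, 7.34 and 7.26 in the FoxO3 null arrays. The fall was of nearly the same size in both sets, 0.69 in set 1 and 0.67 in set 2, to 62.4% of wild type over both (limma adjusted p = 0.00201). Its 2 dimmer probe sets gave -0.06 and 0.05 and were not called. With the mean of its probe sets Car12 gave -0.23 and lost its call (limma adjusted p = 0.122). Even its brightest probe set lay just below the median gene, brighter than 48.2% of genes. Car9, the carbonic anhydrase best known as a hypoxia marker, was dim, with wild type values from 5.94 to 6.14 and FoxO3 null values from 5.77 to 5.92. The Car9 genotypes did not overlap, but its difference of -0.18 ± 0.05 (SE) was not called (limma adjusted p = 0.144).

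Among 6 genes of collagen and matrix processing 3 fell. P4ha1, the catalytic subunit of collagen prolyl 4-hydroxylase, read 10.58, 10.47, 11.01 and 11.04 in the wild type arrays and 10.26, 9.92, 10.68 and 10.58 in the FoxO3 null arrays. It was apart within both sets and fell by 0.42 ± 0.07 (SE; limma adjusted p = 0.0213), with -0.48 in its other probe set. P4ha1 was the 1 gene of the 33 on chromosome 10, which carries Foxo3, and lay 17.0 megabases from it. Plod2, the lysyl hydroxylase that shapes collagen cross-links, read 11.25, 11.23, 10.92 and 10.95 in the wild type arrays and 10.84, 10.71, 10.74 and 10.64 in the FoxO3 null arrays. Every FoxO3 null array was below every wild type array, with a fall of 0.36 ± 0.06 (limma adjusted p = 0.0201). The other Plod2 probe set gave -0.33 and did not pass when all probe sets were tested (limma adjusted p = 0.0832). Ero1l, the oxidase that drives disulfide bond formation in the endoplasmic reticulum, read 12.01, 11.70, 11.91 and 11.87 in the wild type arrays and 11.15, 10.39, 11.42 and 11.19 in the FoxO3 null arrays. Its genotypes did not overlap either, and its level was 56.0% of wild type (limma adjusted p = 0.0313). All 3 Ero1l probe sets gave differences between -0.86 and -0.80. When all probe sets were tested only the brightest of them passed (limma adjusted p = 0.0468, against 0.0767 and 0.0548). P4ha2, the paralogue of P4ha1, differed by -0.67 ± 0.20 without being called (adjusted p = 0.141), and by -0.42 without FoxO3 null array 1_2. Its signal was low, from 6.42 to 7.16 in wild type against 5.08 to 6.77 in FoxO3 null spheres. The P4ha2 genotypes overlapped across the sets but were apart within both. Plod1 and Lox, which encode another lysyl hydroxylase and the cross-linking lysyl oxidase, differed by -0.04 and -0.08.

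Of 3 transcription factor genes, Mxi1 and Bhlhe40 fell. Mxi1, which encodes an antagonist of Myc, read 10.32, 10.23, 10.53 and 10.54 in the wild type arrays and 9.79, 9.66, 10.03 and 10.12 in the FoxO3 null arrays. All FoxO3 null arrays were lower, by 0.55 in set 1 and 0.46 in set 2, and Mxi1 was called in both sets (limma adjusted p = 0.0128 and 0.0186). Bhlhe40, a repressor induced by hypoxia and by the clock, read 11.89, 11.79, 11.59 and 11.50 in the wild type arrays and 11.54, 11.42, 11.29 and 11.19 in the FoxO3 null arrays. It was apart within both sets and fell by 0.33 ± 0.06 (SE; limma adjusted p = 0.017). Rora, a nuclear receptor of the clock, differed by -0.23 ± 0.08 (adjusted p = 0.181), and its 9 probe sets disagreed, with differences from -0.30 to 0.26.

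**Figure D3:**
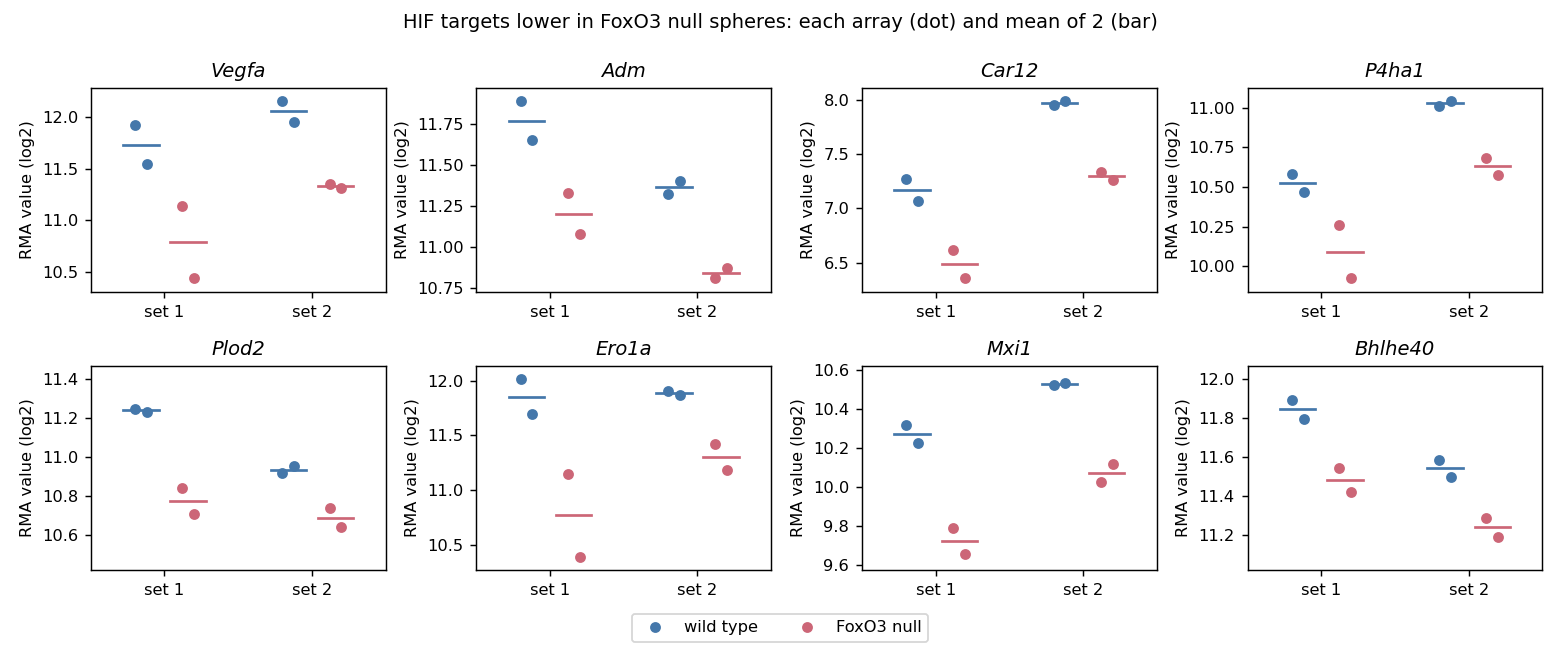
RMA value (log2, y axis) of the 8 called targets in each array (dots; blue wild type, red FoxO3 null) with the mean of the 2 arrays (bars), by set. In every panel both FoxO3 null arrays of a set lie below both wild type arrays of that set; set levels differ, as in Car12, where set 2 is higher.

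The other 9 targets were not called either, and their levels spread widely. The 3 genes of mitochondrial proteins just missed the threshold with every FoxO3 null array below every wild type array. Bnip3, which triggers mitophagy, ran from 12.63 to 12.95 in the wild type arrays and from 11.51 to 12.40 in the FoxO3 null arrays (difference -0.69 ± 0.15 (SE), limma adjusted p = 0.055). Higd1a and Fam162a, small mitochondrial proteins induced by hypoxia, differed by -0.35 ± 0.08 and -0.40 ± 0.09 (adjusted p = 0.0687 and 0.0692). Higd1a ran from 12.44 to 12.68 in wild type against 12.02 to 12.35 in FoxO3 null spheres, and Fam162a from 13.25 to 13.43 in wild type against 12.61 to 13.11 in FoxO3 null spheres. In set 1 Bnip3 and Higd1a were called lower. Differences as large stood at Ankrd37, an ankyrin repeat protein (-0.75 ± 0.18), and Ndrg1, a stress-responsive protein (-0.72 ± 0.20), again without a call (adjusted p = 0.0784 and 0.111). Both overlapped between genotypes across the sets: Ankrd37 ran from 8.33 to 9.13 in wild type against 7.55 to 8.35 in FoxO3 null spheres, and Ndrg1 from 8.93 to 9.51 in wild type against 7.65 to 9.21 in FoxO3 null spheres. Vldlr, a lipoprotein and reelin receptor, differed by -0.49 ± 0.12 (adjusted p = 0.0839), and 2 of its 5 dimmer probe sets passed when all probe sets were tested, with -0.50 and -0.35. Kdm3a, a histone demethylase that needs oxygen, gave -0.23 ± 0.08, and -0.15 without FoxO3 null array 1_2. Kdm4b of a related family gave 0.01 with a 95% interval from -0.12 to 0.14. Tfrc, the transferrin receptor for iron uptake, gave -0.06 with an interval from -0.19 to 0.07. Its arrays ran from 11.28 to 12.47 in wild type against 11.24 to 12.36 in FoxO3 null spheres, a spread that followed the sets. Of the 33 genes 7 differed by 1.5-fold or more, and of those only Vegfa, Ero1l and Car12 were called.

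In 17 of the 24 targets both FoxO3 null arrays lay below both wild type arrays in each set, beside 6.54% of all genes. Across all 8 arrays 8 targets had every FoxO3 null array below every wild type array, beside 1.69% of all genes. The sets changed the levels of many of these genes: 19 of the 33 passed the set test, beside 43.8% of all genes, with Tfrc lower by 1.08 and Car12 higher by 0.81 in set 2 (log2). Within set 1, 7 targets and 1 sensor (Egln3) were called lower and 0 higher (background 0.572% lower and 0.170% higher), and within set 2, 3 targets were called lower and 0 higher (background 1.21% lower and 0.715% higher). The 3 called in set 2 were Adm, Car12 and Mxi1. These within-set tests take the spread from all 8 arrays. Fitted on the 4 arrays of a set alone, 0 targets were called in set 1 (limma, 18 at an unadjusted p under 0.05) and 5 in set 2. The same fits called 63 of all 18193 genes in set 1 and 171 in set 2. How many of all genes had an unadjusted p under 0.05 in them is not given here.

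The median target difference was -0.50 in set 1 and -0.27 in set 2, and 21 of the 24 targets had the lower value in set 1, beside 47.9% of all genes. None of the 33 genes passed the test of the genotype-by-set interaction (limma; background 0.187% called), and 5 had an unadjusted p under 0.05, beside 8.70% of all genes. These 5 were Egln3, Higd1a, Rora, Hif3a and Ndrg1. In set 1 the 3′ minus 5′ signal difference of the actin control probe sets, a sign of RNA quality, was 0.54 and 0.52 in the wild type arrays and 0.47 and 0.49 in the FoxO3 null arrays. In set 2 it was 0.39 and 0.36 against 0.33 and 0.36. Over both sets the mean was 0.45 ± 0.09 for wild type against 0.41 ± 0.08 for FoxO3 null (SD, n = 4, exact permutation p = 0.514, two-sided, smallest possible 0.0286). The SDs and that permutation ignored set, so they include the spread between sets. Within sets the mean differed by -0.05 in set 1, where the genotypes were apart, and by -0.03 in set 2, where they overlapped. The Gapdh control gave a mean of -0.08 ± 0.02 for wild type against -0.10 ± 0.01 for FoxO3 null (SD, exact permutation p = 0.114). Its genotype difference was -0.02 in each set. With the actin difference as a covariate the targets had a median of -0.35, with 0 called and 12 at an unadjusted p under 0.05 (limma). That fit called 7 of all 18193 genes, and its all-gene number at an unadjusted p under 0.05 is not given here.

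Arrays of 1 genotype and set also differed from each other along the targets. Set against the wild type mean of its own set, the median target was -0.39 and -0.60 in the FoxO3 null arrays 1_1 and 1_2, and -0.19 and -0.31 in arrays 2_1 and 2_2. Between 20 and 23 of the 24 targets in each FoxO3 null array lay below both wild type arrays of its set. The share of all genes that did so in a single array was not counted, so this number has no background. In set 1, 22 of 24 targets were lower in array 1_2 than in array 1_1, both in wild type (median -0.15) and in FoxO3 null spheres (median -0.22), while over all genes the share was 44.9% and 43.5%. In set 2 it was 12 of 24 in the wild type arrays and 20 of 24 in FoxO3 null spheres, beside 48.3% and 51.2% of all genes. The number of called targets moved with single arrays as well: it was 3 without wild type array 1_1, 4 without wild type array 2_1 and 3 without FoxO3 null array 2_2, and 6 to 9 without any other array. Over all genes the fits without these arrays called 117, 104 and 136, in the same order, against 186 to 222 without any other array. Adm, Car12 and Mxi1 were called in all 8 of these fits. The call was lost in 5 of the 8 for Ero1l and Plod2, in 4 for P4ha1 and Bhlhe40 and in 3 for Vegfa. With the 2 arrays of a set and genotype averaged, which leaves 4 values, 0 targets were called (limma, 18 at an unadjusted p under 0.05). That fit called 0 of all 18193 genes, so its count says nothing particular to the targets. Its all-gene number at an unadjusted p under 0.05 is not given here, so the 18 has no background.

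Genes around this core were read from lists chosen with earlier results of these data known. Of 24 listed HIF cofactors and degradation factors, among them the coactivators Ep300 and Crebbp and the ubiquitin ligase parts Cul2, Elob, Eloc and Rbx1, 21 were measured and 0 were called, beside the 1.17% lower and 0.429% higher of all genes that also stand beside the next lists (limma; 3 lower and 1 higher at an unadjusted p under 0.05). Their median was -0.0043, and the smallest p-values were those of Senp1, a SUMO protease (0.26 ± 0.06 (SE), adjusted p = 0.0864), and Wsb1, a ubiquitin ligase component (-0.40 ± 0.12). Of 35 measured further HIF targets outside glycolysis 6 fell and 0 rose, with a median of -0.11. They included Ppp1r3c, a glycogen-targeting phosphatase subunit (-0.73), Ddit4, an inhibitor of mTORC1 (-0.90), Insig2, a brake on sterol synthesis (-0.34), Pnrc1, a nuclear receptor coactivator (-0.47), and Ccng2, an atypical cyclin (-0.49). Ddit4 lay 17.7 megabases from Foxo3 on chromosome 10. Of 19 measured glycolytic HIF targets 5 fell and 0 rose, namely Slc2a1, Slc2a3, Pfkfb3, Pgam1 and Aldoa, with a list median of -0.28 and differences from -1.03 to 0.13.

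**Figure D4:**
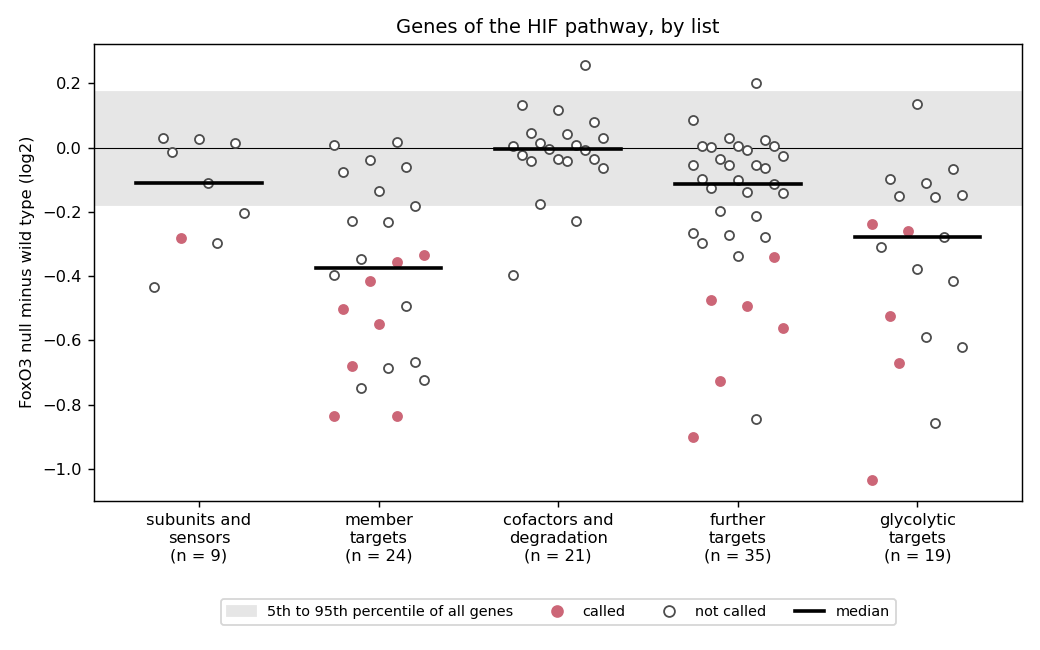
FoxO3 null minus wild type difference (log2, y axis) of each measured gene (dots; filled if called) by list, with list medians (bars) and the 5th to 95th percentile of all genes, -0.18 to 0.17, in grey. The medians of the member targets (-0.38) and glycolytic targets (-0.28) lie below the grey band, while those of the subunits and sensors (-0.11), cofactors (-0.0043) and further targets (-0.11) lie inside it.

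Other cell markers moved in part in the same arrays. Slc1a2 of the 7 astrocyte markers, Gad1 of the 7 neuronal markers and Pdgfra, Cspg4 and Sox10 of the 7 measured oligodendrocyte lineage markers were called lower, and Nes of the 7 measured stem cell markers higher. Of the other stem cell markers Sox2 (-0.26), Msi1 (-0.28) and Pax6 (-0.18) had negative differences that were not called, with 3 of the list lower and 1 higher at an unadjusted p under 0.05. In the oligodendrocyte list Mbp was called higher within set 1 (0.87). The summed astrocyte level ran from 13.91 to 14.17 in the wild type arrays and from 13.90 to 14.07 in the FoxO3 null arrays, the neuronal one from 12.89 to 13.22 and from 12.89 to 13.14, and the oligodendrocyte one from 14.68 to 15.36 and from 14.82 to 15.39 (log2 of summed signals). The stem cell sum ran from 15.71 to 15.76 and from 15.65 to 15.74. Pericyte and smooth muscle markers had 0 of 6 called and sums from 10.43 to 11.51 in the wild type arrays and from 11.42 to 11.69 in the FoxO3 null arrays (limma; 1 higher at an unadjusted p under 0.05), with 2 called higher within set 2. Y-linked genes were lower, with 2 of 3 called and a mean log2 difference of -0.27 in set 1 and -0.74 in set 2 (exact permutation p = 0.229 over the 8 arrays, two-sided). That permutation ignored set, and within each set both FoxO3 null arrays had a lower Y-linked mean than both wild type arrays. With that mean as a covariate the target median was -0.56, 0 targets were called (limma; 19 at an unadjusted p under 0.05) and 8 of all genes were called. The part of these markers in the target differences was not tested, and in bulk spheres fewer cells of a type and less RNA per cell cannot be told apart.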

How the data were processed

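Each of 8 secondary neurosphere RNA samples was measured on its own Affymetrix Mouse430_2 array. The table the authors deposited holds log2 expression values, and the submitters' processing notes name RMA; its version, and whether all arrays were run together, are not given in the sources used here. RMA and quantile normalization compress dim signals and hide shifts shared by all genes, and the number of arrays limits the precision. Of 45101 probe sets 64 controls were left out. The platform annotation gave 1 symbol to 34945, several to 932 and none to 9160, and each of 18193 genes was read from the probe set with the highest mean over 8 arrays. Groups, sets and numbers came from the titles.

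The genotype difference was fitted across all genes in limma (3.58.1, R 4.3.3) with set as an additive term, and the set test was read from the same fit. The genotype differences within each set and the interaction were read from a 4-group fit. All p-values are two-sided. Those of limma carry the Benjamini-Hochberg adjustment unless they are called unadjusted. The exact permutation p-values are not adjusted and took no account of set. The script was tested on simulated data. The member genes and lists were chosen with earlier results of these data known, and every member is named; array values are given for subunits, sensors and called targets, and from the other lists up to 5 called genes or the 2 smallest p-values. Array numbers were not used as pairs.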

Additional observations from a re-analysis of the deposited data

How the results depend on the processing

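The fall of the targets kept its direction but the number of calls depended on the fit. In place of 8 called targets, 0 were called with no set term, in set 1 alone, with no moderation of the variances, with array means and with the Y-linked or the actin covariate. These fits also called few of all 18193 genes, where the main comparison called 291. The number was 3 with no set term, 63 in set 1 alone and 0 with no moderation or with array means. It was 8 with the Y-linked covariate and 7 with the actin covariate. There were 5 in set 2 alone and with set as a random block, 13 at an adjusted p under 0.10, 14 with a variance trend, 15 with set and genotype as a random block, and 3 to 9 without 1 array. Calls over all genes moved too, to 171 in set 2 alone, 89 with set as a random block and 104 to 222 without 1 array. They rose to 620 with a variance trend and 796 with set and genotype as a random block. The all-gene number at an adjusted p under 0.10 is not given here. The replicate block, an alternative that pairs same-numbered arrays, called 7 targets and 0 subunits or sensors, with Plod2 (limma adjusted p = 0.0728) and Epas1 not called. Over all genes it called 133. The labels do not say that a number pairs arrays, and deviations of same-numbered arrays from their group means correlated at 0.118 in set 1 and -0.110 in set 2, which does not settle it. The median target difference ran from -0.56 with the Y-linked covariate to -0.27 in set 2 alone. In these fits 21 to 24 of 24 targets were negative (18 of 19 with dim genes left out), and 0 were called higher. Of the subunits and sensors, 1 in the main comparison, 0 were called with no set term, in either set alone, with all probe sets tested (for the brightest probe set of each gene), with no moderation, with set as a random block, with array means and with either covariate. With the probe set of largest variance, the filter on dim genes, the trend, the random block of set and genotype and an adjusted p under 0.10 the number was 2, and 0 to 1 without 1 array. The interaction passed in 2 of the 33 genes with a variance trend and in 0 to 1 without 1 array. The all-gene numbers of these interaction fits are not given here.

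Signs turned only in genes that were not called. With the Y-linked covariate they were Hif3a (0.021), Arnt (0.075), Vhl (0.027), Egln2 (-0.042), Plod1 (0.034), Lox (0.091) and Kdm4b (-0.15, and -0.097 with the actin covariate). In set 1 alone they were Arnt (0.042), Egln2 (-0.024), Plod1 (0.015), Lox (0.013) and Kdm4b (-0.023), and in set 2 alone Hif1an (-0.031), Angptl4 (-0.074) and Tfrc (0.024). With the probe set of largest variance they were Arnt (0.018) and Hif1an (-0.042). Without 1 array Arnt ran from -0.050 to 0.0013, Hif1an from -0.027 to 0.068, Egln2 from -0.017 to 0.046, Angptl4 from -0.050 to 0.049 and Kdm4b from -0.038 to 0.042. The cause of these changes was not tested.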
